A study of Mus musculus with 12 samples.

Results

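RNA made during a 15 min pulse of 4-thiouridine (4sU) was compared with the total RNA of the same labeling time, separately over exons and over introns. The libraries were chosen by their labels, as the labeled and the total RNA with a labeling time of 15 min, which are 4 of the 12 libraries of the series. The cells were DTCM23/49 XY mouse embryonic stem cells (mESCs), pluripotent cells grown on gelatin with serum and leukemia inhibitory factor (LIF), and all of them received 200 µM 4sU. The total RNA therefore came from cells exposed to 4sU as well, and contains the labeled RNA. One culture was divided to give 2 biological replicates, which were passaged separately before labeling, so each group holds 1 labeled or total library per replicate. Differences between the replicates include the spread between parallel cultures of one line. They can also include the spread from labeling and from the handling of the RNA and libraries, which cannot be told apart from it.

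4sU is a uridine analog that cells take up and build into RNA while it is in the medium. The RNA that carries it can be biotinylated and pulled down, and is then enriched for transcripts that were just made. Introns are removed within minutes for many genes, so intronic RNA is mostly young, whereas the exons of a long-lived mRNA are mostly old. Stable mRNAs are known to make up a smaller part of labeled than of total RNA after a short pulse, and unstable mRNAs and unspliced precursors a larger part.

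The values are length-normalized abundances, in which exons and introns together sum to the same total in every library to within rounding, and a value of 20 corresponds to a TPM of 1. They are relative to the other RNA of the same library, and a value of 1 or less is listed as 0 here. Since sequencing depth cannot be read from them, no counting error is given. All 15 embryonic stem cell markers were present in all 4 libraries, with exonic L1td1, an RNA-binding protein of pluripotent cells, between 4098 and 5711. Of 9 fibroblast markers, 4 were listed at 0 in all 4 libraries, Col1a1 did not exceed 2.88, and the summed exonic level was 606 and 684 in labeled RNA and 1059 and 887 in total RNA, nearly all of it Fn1. Of 13 markers of differentiated lineages, 5 were listed at 0 in all 4 libraries, and exonic Otx2 ranged from 681 to 2289.

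The intronic share of all values was 14.8% in labeled replicate 1 and 7.24% in labeled replicate 2. It was 7.20% and 6.53% in the total libraries. Both labeled libraries lay above both total libraries, but the second labeled library exceeded the nearer total library by far less than it differed from the first. The means were 11.0% ± 5.35 (SD, n = 2) in labeled and 6.87% ± 0.476 (SD, n = 2) in total RNA, and an exact two-sided permutation test gave p = 0.333, the smallest p that 2 against 2 libraries allow. For the typical gene with values over both its exons and introns, introns held 39.9% of the gene's signal in labeled replicate 1, 17.2% in labeled replicate 2, 19.1% in total replicate 1 and 18.5% in total replicate 2. Labeled replicate 2 was the lowest of the 4 by this measure, and the groups overlapped.

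Because of this gap, each gene's difference is given for each replicate as log2(labeled + 1) minus log2(total + 1). The labeled and the total library of the same replicate number were taken as a pair, which is an assumption. Over introns the median difference of 19028 genes was 1.34 in replicate 1 and 0.07 in replicate 2. Over exons the median of 25557 genes was -0.10 in replicate 1 and 0.14 in replicate 2. Counts of all genes, here and below, include transcripts that the GENCODE M1 annotation lacks, each kept as its own unit. These were 11572 of the exonic and 6674 of the intronic units, and some can be isoforms of annotated genes. Their medians in replicates 1 and 2 were 1.26 and 0.01 over introns and 0.13 and 0.10 over exons. Labeled replicate 1 exceeded both total libraries for 96.5% of intronic values, and labeled replicate 2 for 36.7%. The direction of the difference was the same in both replicates for 53.5% of genes over introns and for 48.5% over exons. Across genes, the differences of the 2 replicates had a correlation of 0.21 over introns and 0.01 over exons. The exonic levels of the 2 labeled libraries had a correlation of 0.85 across genes on the log2 scale, whereas labeled replicate 2 and total replicate 1 had one of 0.92 and the 2 total libraries one of 0.93. Genes are not independent replicates, and all these points share their libraries.

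**Figure D1:**
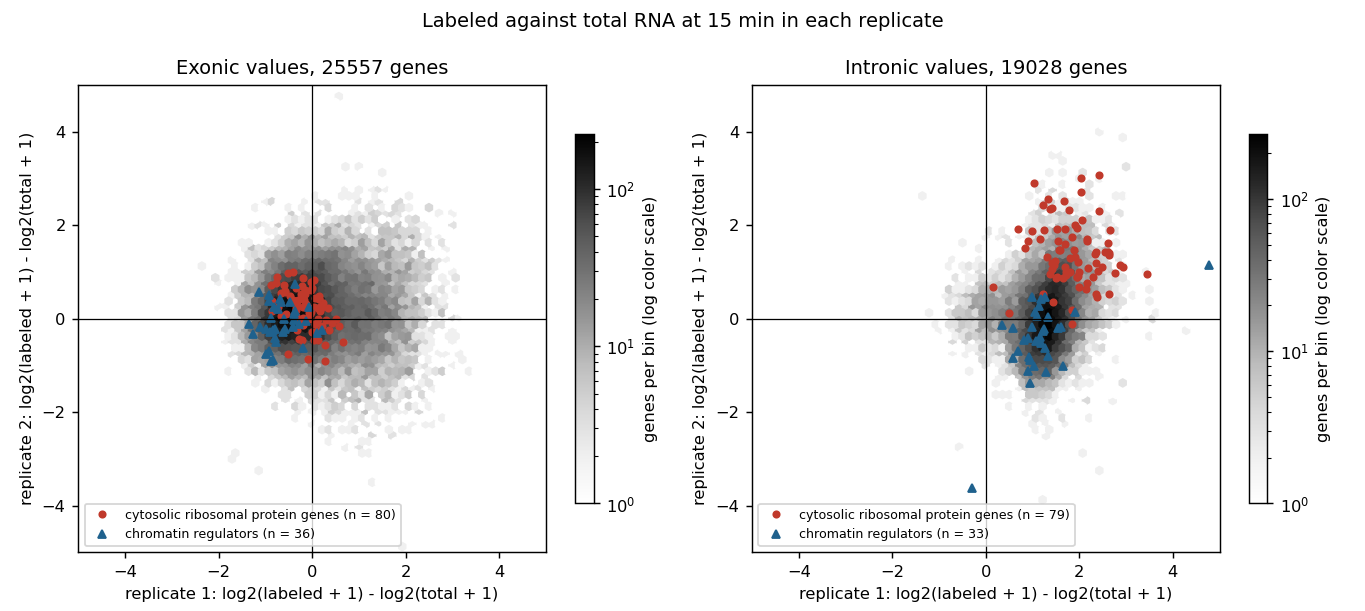
Difference between labeled and total RNA at 15 min in replicate 1 (x axis) and replicate 2 (y axis), on the log2(value + 1) scale, for exonic values (left, 25557 genes) and intronic values (right, 19028 genes). Grey bins give the number of genes, red points the ribosomal protein genes and blue triangles the chromatin regulators, and 413 exonic and 63 intronic differences beyond 5 in either replicate lie outside the panels. Over introns nearly all genes lie to the right of 0 in replicate 1 while replicate 2 is centered near 0, and the ribosomal protein genes lie above the bulk in both.

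limma, fitted to all 12 libraries as 6 groups and with Benjamini-Hochberg adjustment at 0.05, called 0 exonic genes (0%) and 0 intronic genes (0%) at 15 min. At an unadjusted p under 0.05 there were 2702 of 25557 exonic and 2614 of 19028 intronic genes, and the lowest adjusted p was 0.137 and 0.120. Over introns, 2580 of the 2614 were higher in labeled RNA. A fit with a replicate block within each labeling time called 59 intronic genes higher, or 0.31%, and 3 lower, and no exonic gene. A fit to the 4 libraries of 15 min alone called 14 intronic genes higher and 6 lower. In simulated data of the same size, the 12-library fit recovered 89 of 200 exonic genes changed by a log2 value of 2 but 0 of 200 intronic genes, and 0 of 200 of either kind changed by a log2 value of 1. At a log2 value of 3 the 12-library fit recovered 87 of 200 intronic genes. The fit to 4 libraries recovered 0 of 200 intronic genes at each of the 3 sizes. Only 200 genes were changed in these simulations, so they do not show what is detectable where many introns shift together.

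The groups are therefore also described by whether both labeled libraries lay on one side of both total libraries. Over introns this held for 6764 genes above the total libraries, 35.5% of those tested, and for 159 genes below them, 0.836%. Over exons it held for 4779 genes above, 18.7%, and 4906 genes below, 19.2%. With median-of-ratios scaling, which sets the median intronic difference to about 0 in both replicates, 22.5% of intronic genes lay above and 19.6% below, and over exons 19.9% lay above and 21.0% below. The intronic split between genes above and below thus depends on the scaling.

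The introns of the genes for cytosolic ribosomal proteins, the subunits of the ribosome, had the highest values in labeled relative to total RNA in both replicates among the lists with 15 or more intronic members. Their median intronic difference was 1.85 in replicate 1 and 1.32 in replicate 2, against 1.34 and 0.07 for all genes. Both labeled libraries lay above both total libraries for 77 of 79 genes, where 35.5% of all genes did. The 2 others were Rps23 and Rps2, both of which had a higher mean in labeled RNA. With median-of-ratios scaling 58 of 79 lay above and 0 below, where 22.5% and 19.6% of all genes did. None passed limma's adjusted threshold, and 70 of 79 had an unadjusted p under 0.05, against 2614 of 19028 of all genes.

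Rpl10, a large subunit protein on chromosome X (71516151 to 71518474, plus strand, mm9), had the highest exonic level of the list. Its intronic value was 3873 and 3253 in the labeled libraries and 1501 and 1666 in the total libraries, a log2 difference of 1.17 ± 0.30 (SE, limma, adjusted p = 0.184). The groups did not overlap, and labeled RNA was 2.58-fold above total RNA in replicate 1 and 1.95-fold in replicate 2. Rps18, a small subunit protein, had intronic values of 1951 and 910 in labeled and 501 and 491 in total RNA. Rpl5, which carries 5S rRNA into the ribosome, had 2866 and 1202 in labeled and 869 and 598 in total RNA. For both genes labeled replicate 1 was the highest and labeled replicate 2 the next, with no overlap.

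The exons of the same genes did not share this. Exonic Rpl5 was 36839 and 39545 in labeled and 38603 and 39921 in total RNA, and exonic Rps18 was 35758 and 36674 in labeled and 33201 and 44465 in total RNA. The labeled values lay within or beside the total ones. Over the 80 ribosomal protein genes tested, the median exonic difference was -0.15 in replicate 1 and 0.24 in replicate 2, close to the -0.10 and 0.14 of all genes, with 12 above and 8 below both total libraries, against 18.7% and 19.2% of all genes. Exonic reads of these genes can be shared with their many processed pseudogenes, so single exonic values are uncertain. The summed intronic level of the list was 52948 and 33837 in labeled RNA and 15983 and 14213 in total RNA.

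Rpl7a (chromosome 2, 26766284 to 26768838, plus strand, mm9) had the largest intronic difference of the list, and is named here after its values were seen. Its introns measured 1128 and 1374 in labeled and 208 and 163 in total RNA, which is 5.39-fold in replicate 1 and 8.38-fold in replicate 2. Here the second labeled library was the higher. The log2 difference was 2.75 ± 0.39 (SE) in the 12-library fit. By limma, the adjusted p was 0.120 in that fit, 0.0101 with the replicate block within time and 0.0271 in the fit to 4 libraries. The lower adjusted p with the block came with a larger SE, 0.55, for the same difference. Rps21, named by its exonic difference, had intronic values of 116 and 105 in labeled and 27.4 and 12.2 in total RNA.

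Introns of ribosomal protein genes often hold genes of small nucleolar RNAs (snoRNAs), which guide the modification of ribosomal RNA, and reads from a snoRNA cannot be told apart from reads of the intron around it. Rpl7a, Rpl10 and Rpl5 each hold at least 1, and Rps18 holds none. Of the 79 genes, 30 had a short RNA gene of the same strand within them and 49 had none. Among the 49, 48 lay above both total libraries, with medians of 1.91 in replicate 1 and 1.36 in replicate 2. Among the 30, 29 did, with medians of 1.79 and 1.22.

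Nuclear genes for the respiratory chain, whose products make ATP in mitochondria, had 61 of 75 intronic members above both total libraries and 0 below, where 35.5% of all genes lay above, with medians of 1.49 and 0.94. With median-of-ratios scaling 38 lay above and 2 below, where 22.5% and 19.6% of all genes did. Over exons 10 of 85 lay above and 10 below, against 18.7% and 19.2% of all genes, with medians of -0.07 and 0.02. Cox7c, a small subunit of cytochrome c oxidase, had intronic values of 1344 and 878 in labeled and 489 and 308 in total RNA, while its exonic value was higher in labeled RNA by 0.77 in replicate 1 and lower by 1.13 in replicate 2. Intronic Atp5b, the catalytic subunit of ATP synthase, was 513 and 358 in labeled and 208 and 143 in total RNA. Cox7c and Atp5b each hold a snoRNA gene, so their intronic values can include reads of a snoRNA. Of the list, 71 genes had no short RNA gene within them, and 57 of these lay above, with medians of 1.55 and 0.89. The 4 that had one all lay above, with medians of 1.38 and 1.41.

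**Figure D2:**
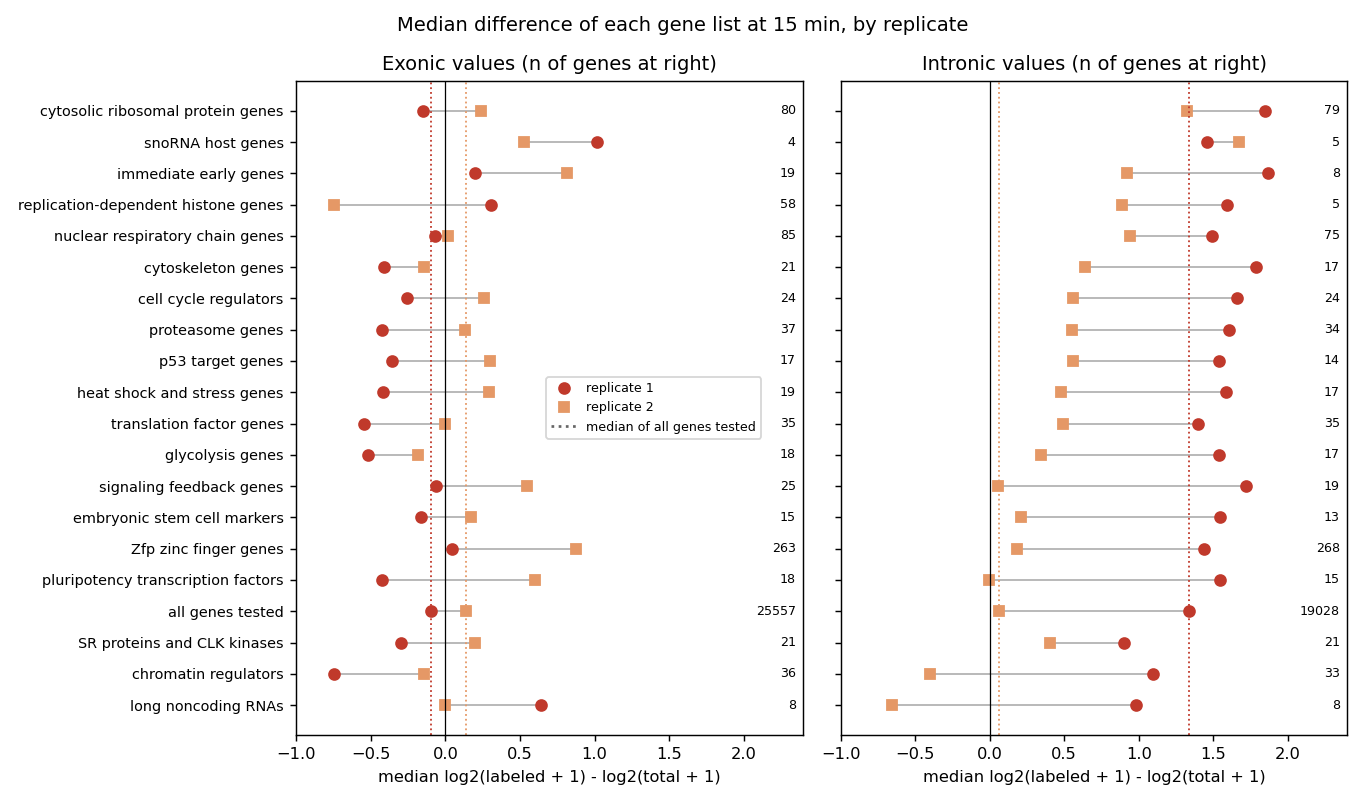
Median difference between labeled and total RNA of each gene list at 15 min, on the log2(value + 1) scale, over exons (left) and introns (right), with circles for replicate 1, squares for replicate 2, dotted lines for the medians of all genes in each replicate, and the number of genes tested at the right of each panel. Ribosomal protein genes have medians of 1.85 and 1.32 over introns and -0.15 and 0.24 over exons, and chromatin regulators lie left of all genes in both panels and both replicates.

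Of 18 genes for enzymes of glycolysis, 12 lay below both total libraries over exons and 0 above, where 19.2% of all genes lay below. Their median exonic difference was -0.52 in replicate 1 and -0.18 in replicate 2. Gapdh, the enzyme that oxidizes glyceraldehyde 3-phosphate, measured 89019 and 93903 over exons in labeled and 114089 and 110158 in total RNA. Its introns went the other way, with 1475 and 733 in labeled and 319 and 351 in total RNA. Neither difference passed the threshold (limma, adjusted p = 0.509 for exons and 0.184 for introns), and the groups overlapped over neither. Exonic Pgam1, phosphoglycerate mutase, was 1487 and 1840 in labeled and 3016 and 2924 in total RNA, the largest exonic difference of this list at -0.84 ± 0.25 (SE, limma, adjusted p = 0.282).

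Genes of the cytoskeleton had 10 of 21 exonic members below both total libraries and 0 above, where 19.2% and 18.7% of all genes did. With median-of-ratios scaling 8 lay below, where 21.0% of all genes did. Actb, cytoplasmic beta actin (chromosome 5, 143664794 to 143668433, minus strand, mm9), measured 6118 and 7248 over exons in labeled and 14382 and 15344 in total RNA, a log2 difference of -1.16 ± 0.30 (SE, limma, adjusted p = 0.259). The labeled values were 0.425 and 0.472 of the total ones in the 2 replicates. Unlike Gapdh, Actb was also lower over introns, with 275 and 198 in labeled and 365 and 448 in total RNA. Exonic Actg1, the other cytoplasmic actin, was 8074 and 10946 in labeled and 15083 and 15024 in total RNA, and it too was lower over introns in both labeled libraries. Vim, an intermediate filament protein, was lower over exons and higher over introns in both labeled libraries.

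Translation factor genes had 18 of 35 exonic members below both total libraries and 1 above, where 19.2% and 18.7% of all genes did. Over introns 21 of 35 lay above and 0 below, where 35.5% of all genes lay above. Pabpc1, which binds the poly(A) tail, measured 20602 and 27708 over exons in labeled and 47465 and 39007 in total RNA, and 904 and 710 over introns in labeled and 304 and 213 in total RNA. Its exonic difference was -0.85 ± 0.19 and its intronic difference 1.65 ± 0.48 (SE, limma, adjusted p = 0.217 and 0.199). The gene above over exons was Eif4a2, an RNA helicase of translation initiation, at 44499 and 55125 in labeled and 39693 and 40308 in total RNA. Eif4a2 introns hold several snoRNA genes, and were at 25787 and 12775 in labeled and 9682 and 9076 in total RNA. With median-of-ratios scaling the list had 20 of 35 exonic members below, where 21.0% of all genes did, and 12 of 35 intronic members above and 5 below, where 22.5% and 19.6% did.

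Chromatin regulators, which comprise Polycomb, DNA methylation, remodeling and cohesin genes, had 21 of 36 exonic members below both total libraries and 0 above, where 19.2% and 18.7% of all genes did, with medians of -0.75 and -0.15. Over introns 3 of 33 lay above and 1 below, where 35.5% and 0.836% of all genes did, with medians of 1.10 in replicate 1 and -0.40 in replicate 2. With median-of-ratios scaling 1 of 33 lay above and 16 below over introns, where 22.5% and 19.6% of all genes did. Chd4, the ATPase of the NuRD remodeling complex (chromosome 6, 125045999 to 125080609, plus strand, mm9), measured 2044 and 1959 over exons in labeled and 3739 and 3680 in total RNA, a difference of -0.89 ± 0.16 (SE, limma, adjusted p = 0.183). The 2 labeled values were nearly equal and both far below the total ones. Over introns Chd4 had 187 and 76.1 in labeled and 78.3 and 88.8 in total RNA, so labeled replicate 1 alone was above. Exonic Rad21, a cohesin subunit, was 432 and 594 in labeled and 860 and 1010 in total RNA. Jarid2, a cofactor of Polycomb complex 2, was lower over introns in labeled RNA, with 2079 and 537 in labeled and 2571 and 6578 in total RNA.

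**Figure D3:**
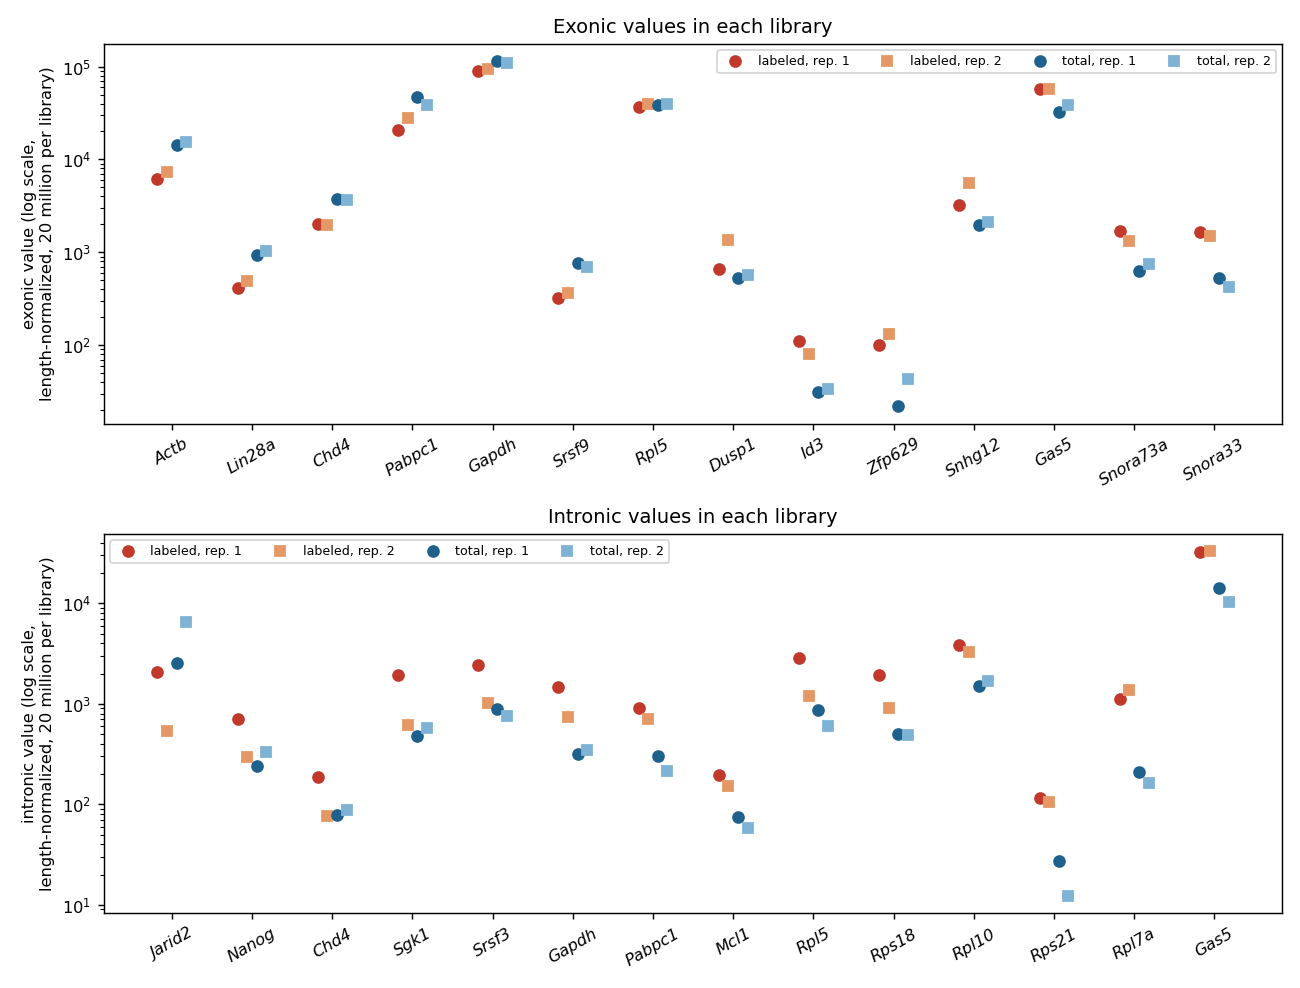
Exonic (top) and intronic (bottom) values of named genes in each of the 4 libraries of 15 min, on a log scale, with red circles and orange squares for labeled replicates 1 and 2 and dark and light blue for total replicates 1 and 2. Exonic Actb, Lin28a and Chd4 lie below the total libraries in both labeled libraries, intronic Rpl10 and Rpl7a above them, and intronic Nanog and Chd4 are above them in labeled replicate 1 alone.

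Immediate early genes, which respond to stimuli within minutes, had 8 of 19 exonic members above both total libraries and 0 below, where 18.7% and 19.2% of all genes did, with medians of 0.20 and 0.81. Over introns 7 of 8 lay above and 0 below, and 5 of 8 with median-of-ratios scaling, where 35.5% and 22.5% of all genes lay above. Exonic Dusp1, a phosphatase that turns off MAP kinases, was 670 and 1374 in labeled and 534 and 568 in total RNA, and its introns 123 and 136 in labeled and 62.6 and 27.6 in total RNA. Intronic Mcl1, an inhibitor of apoptosis, was 194 and 154 in labeled and 74.6 and 58.0 in total RNA, while its exonic value was above both total libraries in labeled replicate 2 alone. Ctgf and Cyr61, secreted matrix proteins of the same family, had the largest exonic differences of the list, with 60.4 and 92.5 in labeled and 38.3 and 13.5 in total RNA for Ctgf, and 39.6 and 58.5 in labeled and 20.7 and 18.6 in total RNA for Cyr61. Fos, the founding immediate early gene, was at 6.63 and 11.2 in labeled and 4.84 and 3.86 in total RNA, under the minimum mean of 20 for a test, and its introns were listed at 0 in all 4 libraries.

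Zfp genes, which encode zinc finger transcription factors, are known for unstable mRNAs. Over exons 116 of 263 lay above both total libraries, and 11 below, where 18.7% and 19.2% of all genes did. Their median exonic difference was 0.04 in replicate 1 and 0.87 in replicate 2, each higher than that of all genes in the same replicate. Over introns they were near all genes, with 100 of 268 above, against 35.5% of all genes, and medians of 1.44 and 0.18. Zfp629 had the largest exonic difference, with 101 and 134 in labeled and 21.9 and 43.0 in total RNA (1.88 ± 0.35, SE, limma, adjusted p = 0.183). Of the 3 most abundant, Zfp207 lay below both total libraries in labeled replicate 1 and Zfp600 and Zfp534 between them, and all 3 lay above both in labeled replicate 2.

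Pluripotency factors differed among themselves and between replicates. Over exons 1 of 18 lay above both total libraries and 2 below, against 18.7% and 19.2% of all genes, with medians of -0.43 and 0.60. Over introns 7 of 15 lay above, against 35.5% of all genes, with medians of 1.54 and 0.00, and with median-of-ratios scaling 4 lay above and 2 below. Exonic Nanog, a core pluripotency factor, was 3744 and 6389 in labeled and 5181 and 8631 in total RNA, lower in labeled RNA within each replicate by 0.47 and 0.43 but with overlapping groups. Its introns were 703 and 299 in labeled and 241 and 328 in total RNA, above both total libraries in replicate 1 alone. Mycn and Myc, transcription factors that drive growth, had exonic values of 1112 and 2847, and of 145 and 350, in labeled RNA, and of 1521 and 1100, and of 173 and 199, in total RNA, so that labeled replicate 1 was near the total libraries and labeled replicate 2 above them. Lin28a, an inhibitor of let-7 maturation and an embryonic stem cell marker, was lower over exons in both labeled libraries, with 417 and 490 in labeled and 926 and 1044 in total RNA (-1.12 ± 0.23, SE, limma, adjusted p = 0.206).

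Among signaling genes, Id3, an inhibitor of differentiation factors and a target of BMP signaling, measured 111 and 80.3 over exons in labeled and 31.1 and 33.5 in total RNA. Cish, a feedback inhibitor of STAT signaling, measured 29.0 and 63.8 in labeled and 11.9 and 11.9 in total RNA. Etv5, a target of FGF signaling, measured 565 and 815 in labeled and 1163 and 958 in total RNA. The first 2 genes lay above and Etv5 below both total libraries, and over the list 5 of 25 lay above and 3 below, against 18.7% and 19.2% of all genes.

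Stress genes had 6 of 19 exonic members below and 4 above both total libraries, against 19.2% and 18.7% of all genes. The chaperone Hsp90aa1 measured 142965 and 176344 over exons in labeled and 208859 and 177125 in total RNA, and 2656 and 2121 over introns in labeled and 746 and 644 in total RNA. Its paralog Hsp90ab1 was also lower over exons in labeled RNA, but its introns, at 3168 and 2400 in labeled and 2960 and 2894 in total RNA, overlapped. Ppp1r15a, which ends the integrated stress response, was higher over exons at 209 and 195 in labeled and 94.3 and 83.1 in total RNA. Cell cycle regulators had 18 of 24 intronic members above both total libraries and 0 below, proteasome genes 24 of 34 and 0, and targets of p53 9 of 14 and 0, where 35.5% of all genes lay above. With median-of-ratios scaling the 3 lists had 12 of 24 above and 0 below, 18 of 34 and 3, and 6 of 14 and 2, where 22.5% of all genes lay above and 19.6% below.

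SR proteins and CLK kinases are splicing regulators known for transcripts whose introns stay in the nucleus. Some of them had abundant introns with small differences between labeled and total RNA. Srsf2 had intronic values of 9895 and 12801 in labeled and 12994 and 12202 in total RNA, and Srsf1 of 2491 and 2732 in labeled and 3741 and 2761 in total RNA. Intronic Srsf5 was 1802 and 1996 in labeled and 1627 and 1490 in total RNA. None of these differences exceeded its error (-0.16 ± 0.37, -0.30 ± 0.37 and 0.28 ± 0.37, SE, limma). The groups overlapped for Srsf2, while Srsf1 lay below and Srsf5 above both total libraries. Other genes of the list had larger intronic differences, with more in labeled RNA. Hnrnph1, an hnRNP gene kept in this list, had 3123 and 2605 in labeled and 1951 and 1355 in total RNA. Srsf3 had 2416 and 1009 in labeled and 883 and 762 in total RNA. The kinase gene Clk1 had 994 and 740 in labeled and 418 and 342 in total RNA. Over the list 11 of 21 lay above and 1 below, where 35.5% and 0.836% of all genes did, and with median-of-ratios scaling 3 lay above and 6 below, where 22.5% and 19.6% did. Over exons, Srsf9 was lower in labeled RNA, with 326 and 361 in labeled and 766 and 689 in total RNA.

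Noncoding hosts of snoRNAs are genes whose spliced exons are known to be degraded quickly, while snoRNAs are cut from their introns. Gas5 (chromosome 1, 162964553 to 162968670, plus strand, mm9), which holds 9 snoRNA genes, measured 56976 and 56957 over exons in labeled and 32136 and 38729 in total RNA, and 32655 and 33069 over introns in labeled and 14227 and 10349 in total RNA. The 2 labeled libraries were nearly equal on both. Its intronic difference was 1.44 ± 0.36 (SE, limma), with an adjusted p of 0.184 in the 12-library fit and of 1.3e-10 in the fit to 4 libraries. The fit to 4 libraries has 2 libraries per group and takes much of a gene's spread from genes of similar level. Its p-values therefore say little about how well the replicates of a single gene agree. The introns of Gas5 were not called in the fit with the replicate block within time. Snhg12 measured 3209 and 5517 over exons in labeled and 1954 and 2135 in total RNA. All 4 hosts tested over exons lay above both total libraries, and 3 of 4 with median-of-ratios scaling, where 18.7% and 19.9% of all genes did. Over introns 4 of 5 lay above, and 2 of 5 with median-of-ratios scaling, where 35.5% and 22.5% of all genes did, and none passed limma's adjusted threshold. The exons of Snhg3 measured 4069 and 4246 in labeled and 1766 and 3020 in total RNA.

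Exonic values of snoRNA genes are those over the snoRNA sequence, and can include reads of the unspliced host. Their summed level was 60502 and 42312 in labeled RNA and 19379 and 22053 in total RNA. Of 199 tested, 89 lay above both total libraries and 6 below, where 18.7% and 19.2% of all genes did. Because 67 of the 199 were listed at 0 in at least 1 library, the 132 above 0 in all 4 were also described, and 73 lay above and 4 below, with medians of 1.24 in replicate 1 and 0.89 in replicate 2. Snora33, in an intron of Rps12, measured 1650 and 1500 in labeled and 524 and 428 in total RNA, and Snora73a, in an intron of Snhg3, measured 1684 and 1326 in labeled and 630 and 753 in total RNA. Both groups were well apart and their labeled values close together. Snord47 and Snord14c, of 77 and 86 nucleotides and shorter than a read, were at 745 and 1332, and at 294 and 516, in labeled RNA and were listed at 0 in both total libraries. Both passed the minimum mean through the labeled libraries alone. Of the 199 tested, 33 were shorter than a read. Reads of a snoRNA and of the host intron around it cannot be told apart.

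Annotated lincRNA genes had 68 of 141 exonic members above both total libraries and 10 below, where 18.7% and 19.2% of all genes did, with medians of 0.76 and 0.46. Protein-coding genes had 1900 of 10689 above and 2574 below, with medians of -0.23 and 0.15. Of the enhancer-associated lincRNA (elincRNA) loci that the study annotated, 21 multi-exonic loci passed the minimum over exons, and 14 lay above and 0 below, with medians of 0.87 and 0.69. Of the single-exonic loci 14 passed, and 8 lay above and 0 below, with medians of 1.33 and 0.39, where 18.7% of all exonic genes lay above. Over introns 11 of 25 multi-exonic loci lay above, against 35.5% of all genes, with medians of 1.63 and 0.19. Malat1, a nuclear lncRNA, went in opposite directions in the replicates, with 90484 and 27208 over exons in labeled and 48248 and 55383 in total RNA. Replication-dependent histone genes also differed by replicate, with exonic medians of 0.31 and -0.74, and Hist1h4d was at 757 and 388 in labeled and 698 and 2330 in total RNA, where total replicate 2 stood apart. Histone genes share near-identical sequence, so their single values are uncertain.

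Protein-coding genes differed with the length of the gene, measured as its span in the GENCODE M1 annotation. Genes with intronic values were divided by span into 4 bins of equal size. In the shortest bin (median 7.27 kb), 68.1% lay above both total libraries over introns, and in the following bins 46.3%, 19.7% and 17.8% (median 114 kb). The median intronic difference went from 1.57 to 1.26 in replicate 1 and from 0.61 to -0.21 in replicate 2. The share above declined from the shortest to the longest bin in all 3 scalings examined, with 39.8% in the shortest and 13.9% in the longest under median-of-ratios scaling. Over exons the share below both total libraries went from 11.6% in the shortest bin to 36.7% in the longest, and the share above from 25.5% to 8.16%. Span was examined after values had been seen.

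**Figure D4:**
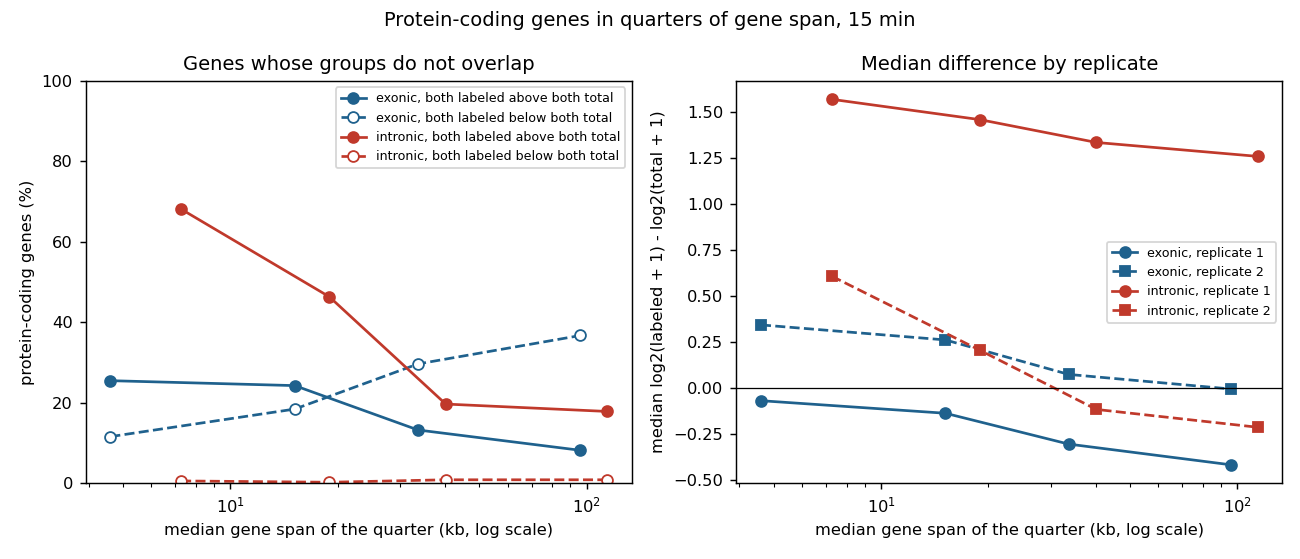
Protein-coding genes in 4 bins of gene span, plotted at the median span of each bin in kb on a log axis, with the percentage of genes whose groups do not overlap (left) and the median difference on the log2(value + 1) scale in each replicate (right), over exons in blue and introns in red. The share of genes with both labeled libraries above both total libraries over introns goes from 68.1% in the shortest bin to 17.8% in the longest, and the intronic median of replicate 2 crosses 0.

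Ribosomal protein genes are short, with a median span of 3.24 kb, and 77 of the 79 were in the shortest bin. Of these 77, 97.4% lay above both total libraries over introns, and of the 2701 other genes of that bin 67.3% did. The medians were 1.90 and 1.29 for the ribosomal protein genes and 1.56 and 0.59 for the others in replicates 1 and 2. This was not particular to them. In the same bin 50 of 56 respiratory chain genes and 16 of 16 proteasome genes lay above, but 53 of 90 Zfp genes did. Of the genes of the bin outside each of these lists, 67.7%, 68.0% and 68.5% lay above. The chromatin regulators had a median span of 46.4 kb, and of the 27 in the 2 longer bins 0 lay above. The other features gave smaller gradients over introns. Between the first and last of 4 bins the share above went from 49.3% to 22.2% with mature transcript length. It went from 48.4% to 24.8% with the number of exons, and from 45.9% to 30.5% with the uridine share of the mature transcript. 4sU is built in at uridines, but the uridine share of the introns was not measured. Over exons, the gradient with the number of exons was at least as wide as that with span. The share above went from 26.9% to 7.37% and the share below from 10.7% to 39.4%. With mature transcript length the exonic share below went from 17.0% to 35.5%. Over exons, uridine share had no steady gradient, with 16.2% above in both the first and the last bin.

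The ratio of intronic to exonic value was tested for 14157 genes with both. limma called 2 higher in labeled RNA, or 0.0141%, and 0 lower, and 1419 had an unadjusted p under 0.05. Both were transcripts not in the annotation used, ENSMUST00000198219 and ENSMUST00000177260. Their genes were not looked up, so they have no symbol here, and they were named after their values were seen. Labeled replicate 1 exceeded both total libraries for 93.8% of ratios, and labeled replicate 2 for 32.2%. The introns of the first transcript measured 223 and 192 in labeled RNA and were listed at 0 in both total libraries. Its exons measured 37.8 and 108 in labeled and 73.0 and 48.6 in total RNA. The introns of the second transcript measured 14.8 and 42.9 in labeled RNA and were listed at 0 in total RNA. Both transcripts passed the minimum mean of 10 over introns through the labeled libraries alone, which fixed the direction of these calls, and no fold is given. Both labeled libraries lay above both total libraries for 30.9% of ratios and below for 1.29%, and the medians were 1.55 and -0.11 in replicates 1 and 2. For ribosomal protein genes 73 of 79 ratios lay above, for respiratory chain genes 60 of 75 and for translation factor genes 24 of 35. With the replicate block within time, 82 ratios were called higher, or 0.579%, and 17 lower, and the called genes included 4 ribosomal protein genes. Of these 99 calls, 46 had a library listed at 0.

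Of the 62 intronic calls of the fit with the replicate block within time, 24 had a library listed at 0. The genes given here were chosen after their values were seen. Among those above 0 in all 4 libraries, Gpx1, a glutathione peroxidase, had intronic values of 85.2 and 27.6 in labeled and 3.40 and 3.87 in total RNA (limma, adjusted p = 0.0051 with the block). Surf1, an assembly factor of cytochrome c oxidase, had 120 and 64.4 in labeled and 15.2 and 9.16 in total RNA (limma, adjusted p = 0.029 with the block). Ndufs7, a subunit of respiratory complex I, had 50.9 and 63.5 in labeled and 2.44 and 15.9 in total RNA. Zc3h7a was among the 3 called lower, with 3968 and 1199 in labeled and 11087 and 26037 in total RNA over introns. It holds a gene annotated as U1, a small nuclear RNA, whose reads cannot be told apart from those of the intron. Its intronic value was 8.48 and 30.7 times its exonic value in the total libraries. For each of the genes given here the groups did not overlap, and in the 12-library fit without the block none passed the threshold.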

How the data were processed

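The 15 min pulse of 200 µM 4sU gave 2 labeled libraries and 2 libraries of total RNA. Per the study's methods, the authors used STAR v2.5.0 to discard rRNA reads, and the rest was mapped with STAR and quantified by RSEM over exon and intron sequences. The submitters' processing notes name mm10, and the annotation release and scaling are not given in the sources used here. The deposited values are a length-normalized abundance signal of exons and introns scaled together to the same total (19989406 and 19988923 in the total libraries). Values of 1 or less are missing and taken here as 0. The paper gives an average number of reads per library, but the depth of each single library is unknown. Relative values cannot show a change in the amount of RNA per cell.

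Transcript values were summed by gene with GENCODE M1 (mm9), which held 83847 of 121429 exonic transcripts, and other transcripts were kept as their own unit. The sum of a gene therefore leaves out any of its transcripts that M1 lacks. Transcripts in M1 held 71.7% and 75.3% of the exonic signal in the labeled libraries and 74.7% and 71.0% in the total libraries. Symbols, RNA classes and gene spans came from M1. limma 3.58.1 in R 4.3.3 was fitted to log2(value + 1) of all 12 libraries as 6 groups with a mean-variance trend, for genes with a mean over the 4 libraries of at least 20 (exons) or 10 (introns), with Benjamini-Hochberg adjustment at 0.05. Differences on this scale understate the change of low genes. The fit was tested on simulated data. Replicate numbers come from the labels. That labeled and total libraries of the same number came from the same culture was assumed for the difference of each replicate. The sources used here do not state it. The deviations of labeled and total libraries of the same number had a correlation of -0.03 over exons and 0.07 over introns at 15 min. Other steps used Python 3.11.15, numpy 2.4.6, pandas 2.3.3 and matplotlib 3.10.9.

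The lists hold genes of a pathway or class by symbol, and all lists and members were chosen with earlier results of these data known. Named genes are the 3 most abundant and the 2 with the largest exonic difference among the tested members of each list (for SR proteins also over introns), Malat1, Nanog, Myc, Fos and genes that passed a test, unless the text says that they were chosen after their values were seen. Of 13 mitochondrially encoded mRNAs none had a row. Leaving out libraries, other pseudocounts, filters, scalings, replicate blocks and transcripts in place of genes were tried as alternatives.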

Additional observations from a re-analysis of the deposited data

How the results depend on the processing

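Where leaving out 1 library left a group with 1, that library was assumed to vary like the other groups. Calls by limma over exons were 0, and 1 in the fit to 4 libraries, 6 with a pseudocount of 10 and 6 with one of 20, 12 without the filter on low values, 11 without the trend, and 1 to 45 with a library left out, the highest without labeled replicate 2. Over introns the 0 calls became 20 in the fit to 4 libraries, 1 with either pseudocount, 9 without the filter, 3 with median-of-ratios scaling, 2 with one total each for exons and introns, 6 without the trend, 2 over transcripts, and 0 to 14 with a library left out, the highest again without labeled replicate 2. For the ratio the 2 calls became 14 in the fit to 4 libraries, 1 with either pseudocount, without the filter, or with either scaling, 0 with a stricter filter, 4 over transcripts, and 2 to 5570 with a library left out, the last without labeled replicate 2.

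The plain replicate block gave 0 exonic and 0 intronic calls and 2 ratios. The replicate block within time gave 62 intronic and 99 ratio calls and 0 exonic ones.

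With a library left out (chosen after seeing the data), genes above both total libraries ranged from 24.8% to 40.5% over exons, from 36.7% to 96.5% over introns and from 32.2% to 93.8% of ratios, and those below from 26.1% to 42.0%, from 1.37% to 41.2% and from 2.23% to 47.2%. These shares are not comparable with those of all 4 libraries, since 1 library and 2 fail to overlap more readily than 2 and 2. Without the filter 12.2% of exonic genes and 4.34% of ratios lay below, and with a stricter one 1.5% of intronic genes and 0.764% of ratios. Median-of-ratios scaling gave 22.5% above and 19.6% below over introns and 19% and 19.7% of ratios. One total each for exons and introns gave 6.90% below over introns and 13.0% of ratios. The difference in intronic share, 4.16 percentage points, was 9.72 for the median gene, and 0.376 to 7.937 with a library left out, lowest without labeled replicate 1. The causes were not tested. The quasi-likelihood test of edgeR, planned for whole counts, was not run, because these values are not counts.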

Other observations

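The introns of Gm14127 measured 934 and 1066 in labeled RNA and were listed at 0 in both total libraries, while its exons measured 239 and 273 in labeled and 207 and 193 in total RNA. Gm14127 was chosen after its values were seen. Genes of the miscellaneous RNA class, many of them copies of 7SK, summed to 5283 and 947 over exons in labeled RNA and to 4700 and 20357 in total RNA, so that labeled replicate 2 was the lowest and total replicate 2 the highest. Small nuclear RNA genes summed to 25112 and 12241 in labeled and to 12315 and 9339 in total RNA, with labeled replicate 1 apart from the other libraries.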
